A study of Homo sapiens with 4 samples.

Results

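NSUN2 RIP-seq peaks that lay in introns of protein-coding genes were described in PANC-1 cells, a human pancreatic ductal adenocarcinoma line. RIP-seq sequences the RNA that is pulled down with an antibody to a protein. The members were the called peaks that the authors' annotation placed in an intron of a protein-coding gene. They numbered 25152 of the 48104 peaks called after lactate and 48052 of the 95785 peaks called after ddH2O, the vehicle. The authors also merged the 2 lists into 116484 intervals, and 61341 of these merged peaks overlapped an intron peak by at least 1 base. Lactate was given as 30 mM sodium lactate for 24 h, and each condition had 1 NSUN2 immunoprecipitation (IP) library and 1 input library, 4 libraries in all. All cells are labelled wild-type, and no library from a control antibody or from cells without NSUN2 was analysed here, so each peak is an enrichment over input only. With 1 library per group no difference between conditions has a replicate check, no test was made, and the intervals given are 95% intervals that cover counting error only.

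An intron is the part of a primary transcript that splicing removes, so intron sequence is abundant in nuclear precursor RNA and rare in mature mRNA. Some introns also hold the genes of small nucleolar RNAs and microRNAs, which are cut from the spliced-out RNA. NSUN2 is an RNA methyltransferase that makes 5-methylcytosine (m5C) in transfer RNAs and in other RNAs, and it is found largely in the nucleus and the nucleolus. Long human genes consist almost entirely of intron sequence, so the number of intron peaks of a gene was read beside its length.

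Of the ductal epithelial markers, 7 of 7 had a called peak in any region after ddH2O and 5 of 7 after lactate (KRT7, KRT8, KRT18, KRT19 and MUC1). EPCAM and CDH1 had 1 peak each, in an intron and after ddH2O only. Of the other types, 0 of 4 acinar, 0 of 3 endocrine, 0 of 3 endothelial and 0 of 3 Schwann cell markers had any peak. Of the fibroblast markers 2 of 4 (COL1A1 and COL3A1) and of the leukocyte markers 2 of 3 (PTPRC and CD68) had at least 1 peak, none of which was in an intron. Summed over the windows of all merged peaks, the lactate IP gave 9756054 reads and the ddH2O IP 9553835. Windows on the mitochondrial ribosomal RNA MT-RNR2 and the nuclear long non-coding RNA MALAT1 took 80.1% and 63.0% of them, which left 1945000 and 3536821 reads. The smaller lactate remainder stood beside the shorter lactate list, and its part in the length of that list was not tested.

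The sequences at hand covered only the windows around annotated gene starts (250 bases before to 50 after, RefSeq, GRCh38.p14), and few intron peaks reached them. Only 15 lactate and 22 ddH2O intron peaks had their summit in 1 of the 35097 windows, or 0.0596% and 0.0458% of the intron peaks. Stretches of 30 bases are shown for 2 genes with such a summit in both lists and for the lactate peak of highest fold among them, since they give the letters under peaks that were called intronic at an annotated start. Each is written 5′ to 3′ on the strand of the annotated gene with the summit base in capitals. USP54, a minus-strand gene of the ubiquitin-specific protease family, had a peak at chr10:73601449-73602069 after ddH2O (fold 18.2) and at chr10:73601458-73601926 after lactate (fold 3.73). Their summits lay 88 and 98 bases before the start.
USP54, ddH2O summit: gtgggtgtcactttAaacatacaaagatct
USP54, lactate summit: tgtacaggttgtggGtgtcactttaaacat
ZNF611, a zinc finger gene, had peaks in both lists at the start of the neighbouring plus-strand gene LOC124904760, at chr19:52733667-52733996 after ddH2O (fold 6.67) and chr19:52733816-52734015 after lactate (fold 2.73).
ZNF611, ddH2O summit: tccttctccccaatcTttcaatcgtcctca
ZNF611, lactate summit: tctcccatctctgcgCctcctctgctctcc
CELF1, a minus-strand gene of an RNA-binding regulator of splicing and mRNA decay, had such a peak in the lactate list alone, at chr11:47494601-47494889 (fold 6.86).
CELF1, lactate summit: cgtttttgttttaaGcataggtcaagggtc
The 2 USP54 summits lay so near each other that their stretches overlap.

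Introns held most of the called peaks of protein-coding genes in both conditions, at shares whose counting intervals overlapped. After lactate 61.5% of 40883 protein-coding peaks were intronic (95% Wilson interval 61.0% to 62.0%), and after ddH2O 61.2% of 78491 (60.9% to 61.6%). Intron peaks were short and weak beside the peaks of exons and 3′ UTRs. Their median length was 201 bases after lactate and 215 after ddH2O, and 49.7% and 47.0% of them were exactly 200 bases long, the shortest length in the lists. The median fold over input, a ratio given by the peak caller, was 3.24 and 3.03. A q-value below 0.05 was listed for 35.1% of the lactate and 41.8% of the ddH2O intron peaks, against 55.9% and 62.5% of exon peaks and 65.0% and 70.6% of 3′ UTR peaks. The lists therefore include many peaks that a false discovery limit of 0.05 would leave out. When the ddH2O list was cut to the lactate size by the peak caller's score, its intron share was 50.7%. With a q-value limit of 0.05 the intron share was 48.4% and 50.2%, and among the 1000 protein-coding peaks of highest fold it was 34.9% and 28.7%.

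A small set of intron peaks was strong. The highest fold of an intron peak after lactate was in TNS3, which codes for tensin 3, a protein of cell-matrix adhesions, with a fold of 80.2 at chr7:47338511-47339764 and of 34.9 at the overlapping ddH2O peak. In DST, which codes for the cytoskeletal linker dystonin, the fold was 57.3 after lactate and 51.5 after ddH2O, the highest among the ddH2O intron peaks. NTSR1, the neurotensin receptor 1 gene, had a fold of 34.6 after lactate and 16.7 after ddH2O. All 3 peaks were thus called in both lists. After ddH2O the next folds were 48.9 in ATR, the gene of a DNA damage checkpoint kinase (21.6 after lactate), and 45.5 in THSD4, which codes for an extracellular matrix protein (10.9 after lactate). In the 2 kb window at the TNS3 peak the IP libraries held 271 reads after lactate and 161 after ddH2O, and at the DST peak 203 and 202. ATR had 107 and 172 reads and THSD4 92 and 148, in libraries of unequal depth. Scaled, their log2 ratios of lactate over ddH2O were 0.14 and 0.11 by the deposited densities and 0.18 in both by the library sums.

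Intron peaks were spread over 8632 genes, of which 6035 had one in the list of lactate and 7974 in that of ddH2O. A gene had a median of 3 merged intron peaks, and 1845 genes (21.4%) had 10 or more and together held 65.7% of them. At least 50 were found in 104 genes and at least 100 in 7. Both lists had intron peaks in 5377 of the genes, 658 genes had them in the lactate list only and 2597 in the ddH2O list only. The ddH2O list held 1.91 times as many intron peaks as the lactate list, and 6446 genes had more ddH2O than lactate peaks, 1145 had more lactate peaks and 1041 had equal numbers. Across genes the counts of the 2 lists had a Spearman rho of 0.71, a description over genes, which are not independent replicates and share length between the lists. When only merged peaks with an intron peak of both lists were counted, 202 genes had 10 or more.

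**Figure D1:**
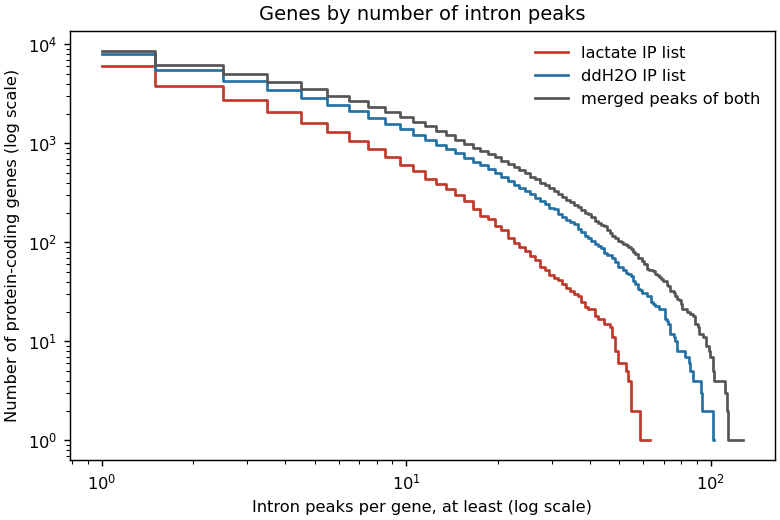
Number of protein-coding genes (y axis, log scale) with at least a given number of intron peaks (x axis, log scale) in the lactate list, the ddH2O list and the merged peaks. The merged curve starts at 8632 genes and reaches 1845 genes at 10 peaks and 104 genes at 50, and the lactate curve lies below the ddH2O curve throughout.

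The 12 genes with the most merged intron peaks all had long spans, of 329 to 1437 kb. SYT1, the gene of synaptotagmin 1, a calcium sensor of vesicle release, stood highest with 127 merged peaks over 588 kb, 63 called after lactate and 102 after ddH2O. KCNQ5, a voltage-gated potassium channel gene, had 113 (48 after lactate and 93 after ddH2O). THSD4 had 112 (54 and 92). SLC35F3, a solute carrier gene, had 111 (52 and 101), and its peaks lay from the 5′ to the 3′ part of the gene on the map of peaks drawn for SYT1 and SLC35F3. LPP, which codes for a LIM domain protein of focal adhesions, had 102 (44 and 85). RABGAP1L, a Rab GTPase-activating protein gene, had 101 (38 and 77). FAF1, which codes for the Fas-associated factor 1, also had 101 (48 and 87). Each of these 7 genes had fewer lactate than ddH2O peaks, as the lists as a whole did. PRKCA, the protein kinase C alpha gene, had 99 (53 and 84). FRMD4A, which codes for a FERM domain scaffold of cell polarity, had 98 (34 and 82). RERE, a nuclear receptor coregulator gene, had 96 (47 and 75). The last 2 of the 12 were MAGI2, a membrane scaffold gene with 96 (42 and 72), and FRMD5, another FERM domain gene, with 94 (49 and 77).

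Exon and UTR peaks were few in the same genes. SYT1 had 11 exon or UTR peaks in each list, and LPP 9 after lactate and 15 after ddH2O. KCNQ5 had 1 and 2, MAGI2 2 and 2, and FRMD5 0 and 1. The number of intron peaks thus exceeded that of exon and UTR peaks in all 12 genes in both lists. Over all 8632 genes, 1966 (22.8%) had intron peaks and no exon or UTR peak in either list, as did 128 (6.94%) of the 1845 genes with 10 or more and 3 of the 104 genes with 50 or more.

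Longer genes tended to have more intron peaks, with wide scatter. Over 7994 genes with a peak on their RefSeq span, Spearman's rho of count and span was 0.57, again a description across genes. The 20050 RefSeq protein-coding genes had a median span of 24.1 kb, genes with a merged intron peak 59.5 kb and genes with 10 or more on the span 155.3 kb. Expressed per length, the 1718 genes with 10 or more peaks on the span had a median of 11.9 merged intron peaks per 100 kb, with quartiles of 8.23 and 16.3 and a range of 0.841 to 47.5. Long genes had fewer per length than short ones (rho of −0.26 between peaks per 100 kb and span over all genes with a peak on the span), a relation in which span is on both sides. Of the 12 genes above, FRMD5 had the highest value, 28.6 per 100 kb, followed by SLC35F3 with 26.4 and SYT1 with 21.6. MAGI2, spanning 1437 kb, had the lowest, 6.68 per 100 kb, below the lower quartile. The level of each gene's RNA was not analysed here, so its part in these counts was not tested.

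**Figure D2:**
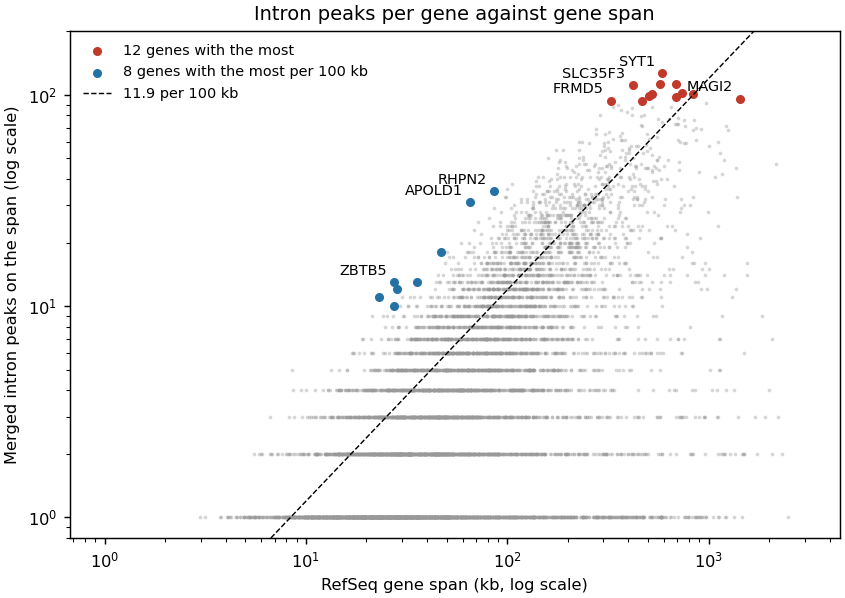
Merged intron peaks on the gene span (y axis, log scale) against the RefSeq span in kb (x axis, log scale), 1 point per gene, with the 12 genes of the highest count and the 8 genes of the highest count per 100 kb coloured. The dashed line marks the median of 11.9 per 100 kb, and the 8 genes of 36.6 to 47.5 per 100 kb lie above it at spans of 23.1 to 86.3 kb.

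Among genes with 10 or more merged intron peaks on the span, those with the most per length were shorter. ZBTB5, a zinc finger transcription factor gene, had 13 merged peaks in 27.3 kb, or 47.5 per 100 kb, from 6 lactate and 12 ddH2O peaks. ZSWIM7, which takes part in homologous recombination, had 11 in 23.1 kb, also 47.5 per 100 kb (8 and 9). APOLD1, an apolipoprotein L domain gene, had 31 on its 65.5 kb span, or 47.3 per 100 kb, and 6 more outside it (16 and 32 in all). APOLD1 and RHPN2, which had 35 peaks in 86.3 kb (40.6 per 100 kb, 20 and 31), were the only 2 of the 8 with more than 30 peaks. RMC1, whose protein acts in endosome maturation, had 12 in 28.4 kb, or 42.3 per 100 kb, and only 3 of its peaks were called after lactate against 10 after ddH2O. TUBA1C, an alpha tubulin gene, had 38.6 per 100 kb (11 and 16 peaks). CACNG8, a regulatory subunit gene of calcium channels and AMPA receptors, had 36.7 (5 and 10). CRK, the gene of a signalling adaptor, had 36.6 (11 and 13). In this group the numbers of the 2 lists lay closer together in ZSWIM7 and CRK than in RMC1 and CACNG8, though each rests on under 15 peaks.

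Some genes with 10 or more merged peaks went against the shorter lactate list. In 72 of the 1845 there were more lactate than ddH2O peaks. The choice of the 5 named here came after their values were seen: 3 have the widest gap (5 peaks), and 2 are among several genes with a gap of 4. ACSL4, which activates long-chain polyunsaturated fatty acids, had 8 lactate and 3 ddH2O peaks, and ZFAND6, an AN1 zinc finger gene, had 12 and 7. SOS1, an exchange factor of RAS, had 24 and 19. MON2, a membrane trafficking gene, had 9 and 5, and GPBP1, a transcription factor gene, had 10 and 6. Reads in their non-overlapping windows ran from 95 to 339 per library, and scaled by the library sums their log2 ratio was 1.54 in MON2, with 232 lactate and 145 ddH2O reads, and 0.72 in SOS1, with 306 and 339. The median log2 ratio of the deposited densities over the windows was 1.37 in MON2 and 0.29 in SOS1, so both genes were above 0 under both scalings.

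Intron peaks lay along the whole gene, with the fewest in the stretch nearest its 3′ end. Of 57025 merged intron peaks on a RefSeq span, 10.2% fell in the bin nearest the 5′ end when each span was cut into 10 equal bins, between 9.18% and 11.5% in each of the next 8 bins and 5.13% in the last bin. The drop at the 3′ end was steepest in short genes. In genes under 50 kb the last bin held 1.79% of the peaks, against 4.41% in genes of 50 to 200 kb and 7.37% in genes of 200 kb or more. In the latter the other 9 bins held between 9.91% and 10.6% each. How much intron sequence each bin contains was not analysed here. Neighbouring merged peaks of a gene were a median of 4290 bases apart (quartiles 1616 and 10653), and 30.2% of the neighbours were closer than 2000 bases, so their read windows overlapped.

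A smaller share of intron peaks than of exon and 3′ UTR peaks was found in both lists. Of the lactate intron peaks 47.3% (46.7% to 47.9%) overlapped a ddH2O peak, against 74.2% (73.2% to 75.2%) of exon and 79.4% (78.4% to 80.3%) of 3′ UTR peaks. Of the ddH2O intron peaks 24.1% (23.7% to 24.5%) overlapped a lactate peak, against 36.4% (35.7% to 37.2%) of exon and 43.8% (43.0% to 44.7%) of 3′ UTR peaks. For 5′ UTR peaks the share was 66.0% (62.3% to 69.5%) after lactate and 26.6% (24.4% to 28.8%) after ddH2O, where its interval overlapped that of introns. The share was higher for strong intron peaks. With a fold of at least 4 it was 69.4% after lactate and 44.5% after ddH2O, and with a fold below 4 it was 36.3% and 15.5%. At a fold of at least 4 it was still below that of exon peaks, 89.4% and 58.7%. In 11857 overlapping pairs of intron peaks the folds of the 2 conditions had a Spearman rho of 0.28, given as a description over pairs. The fold was higher after lactate in 45.9% of the pairs.

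The reads behind an intron peak were few. A window is the 2 kb interval around the merged peak in which MAnorm, the authors' comparison tool, counted reads, and the counts were computed back from the 2 deposited normalized densities. The median intron window held 4 lactate reads and 6 ddH2O reads, 10 in both together. The median total was 11 over all merged peaks, 8 for 5′ UTR, 15 for exon and 44 for 3′ UTR windows. Only 25.8% of intron windows had at least 20 reads in both libraries together and 0.355% had at least 200, against 10.3% of exon and 18.4% of 3′ UTR windows. No read was counted after lactate in 12197 of the 61341 intron windows and after ddH2O in 4584. Over all 116484 merged peaks these counts were 24618 and 9388, so introns did not have more of them in proportion. At such depth a ratio is loosely bound: a FOSL1 intron window with 4 lactate and 5 ddH2O reads had a log2 ratio of −0.22 with a counting interval of −2.61 to 1.93.

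Outside MT-RNR2 and MALAT1, intron windows took a larger share of the lactate library than of the ddH2O library. They held 465578 of the lactate reads, 23.9% of the total outside those genes, and 642083 of the ddH2O reads, 18.2%, with reads in overlapping windows counted more than once. Exon windows held 30.8% after lactate and 35.8% after ddH2O. The 3′ UTR windows held 39.3% and 40.7%. Of these 3 classes only the intron windows had a higher share after lactate. Merged peaks outside protein-coding genes were not set apart here, so neither this rise nor the ratios below are shown to be particular to introns. Some 3.54% of intron windows reached a called exon or UTR peak, and without these the intron shares were 22.5% and 16.9%. Each share rests on 1 library, and the inputs were not read here, so a change in binding and a change in the amount of intron RNA cannot be told apart.

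The difference was also seen window by window. Among 15842 intron windows with at least 20 reads, the log2 ratio of the deposited densities of lactate over ddH2O had a median of −0.04 (quartiles −0.70 and 0.57). It was past 2-fold higher in 2048 (12.9%) and lower in 2729 (17.2%), where over all 37925 merged peaks with 20 reads 7.65% were past 2-fold higher and 18.6% lower. In exon windows 2.14% were higher and 22.5% lower, with a median of −0.39, and in 3′ UTR windows 2.19% and 15.2%, with a median of −0.22. The level depended on the scaling. When reads were instead divided by each library's sum without the windows of MT-RNR2 and MALAT1, 4308 intron windows (27.2%) were past 2-fold higher and 1208 (7.63%) lower, beside 17.0% higher and 8.77% lower over all merged peaks, and the intron median was 0.45. The exon median was then −0.14 and the 3′ UTR median −0.02. This scaling moved the median of all 37925 merged peaks from −0.20 to 0.13, and the intron median was above it under both. The sign of the intron median thus turned with the scaling, and the order of the 3 regions, intron above 3′ UTR above exon, was the same under both. Without a minimum of reads, the deposited densities gave medians of −0.47 in introns, −0.35 in 3′ UTRs and −0.52 in exons, so introns no longer stood above 3′ UTRs.

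Among windows with at least 20 reads, the same order was seen at like depth. In windows of 20 to 49 reads the median log2 ratio of the deposited densities was −0.10 in introns (12028 windows), −0.60 in exons and −0.51 in 3′ UTRs. In windows of 50 to 99 reads it was 0.06 in introns (2846 windows), −0.50 in exons and −0.37 in 3′ UTRs. In windows of 100 to 199 reads it was 0.15 in introns (750 windows), −0.40 in exons and −0.22 in 3′ UTRs. The intron median exceeded both others in each class, and it did so at 200 reads or more as well, with 0.21 in 218 windows against −0.14 in exons and 0.03 in 3′ UTRs. With the library sums the same 4 intron medians were 0.48, 0.44, 0.38 and 0.21, each above both others. At gene level, 897 of the 1845 genes with 10 or more merged intron peaks had at least 200 reads in non-overlapping windows. With the library sums the log2 ratio of their summed reads was above 0 in 781 genes, with a median of 0.42 (quartiles 0.19 and 0.64), beside a median of 0.13 over all merged peaks with 20 reads. By the deposited densities, the median log2 ratio over the windows of a gene, windows of few reads included, was above 0 in 230 of the 897 and had a median of −0.30 (quartiles −0.61 and 0.01). The sign at gene level thus turned with the scaling and the measure.

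**Figure D3:**
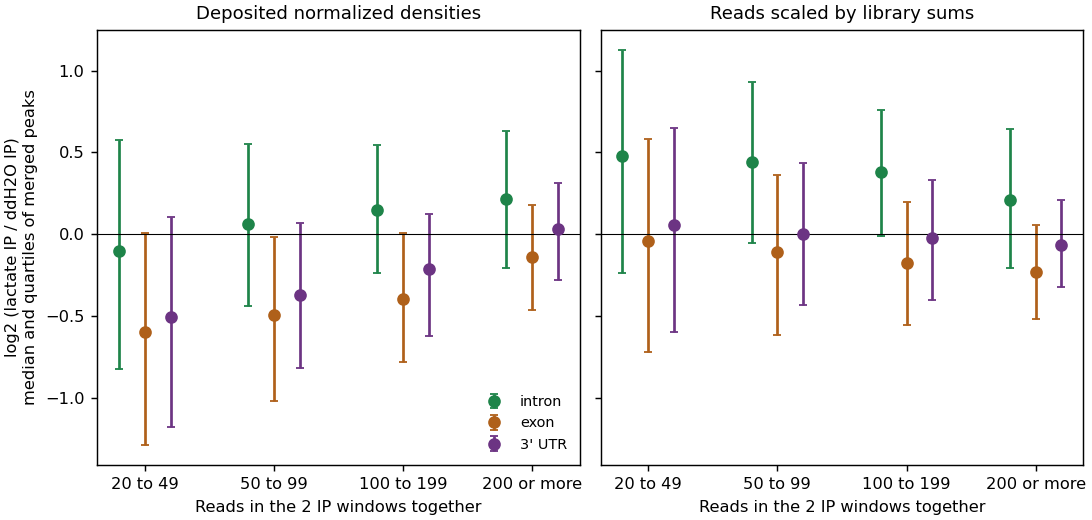
Median log2 ratio of lactate IP over ddH2O IP (y axis) with quartiles as bars, for intron, exon and 3′ UTR merged peaks in classes of reads per pair of windows (x axis), by the deposited normalized densities on the left and by library sums on the right. In each class and panel the intron point is the highest of the 3, from 0.48 to 0.21 with the library sums.

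The most extreme ratios were in windows of modest depth. Among intron windows with at least 50 reads, the highest deposited ratio was in SMURF2, an E3 ubiquitin ligase gene of TGF-beta signalling, with 51 reads after lactate and 8 after ddH2O and a normalized density of 29.6 against 3.95. Its log2 ratio was 2.91, with a counting interval of 1.96 to 4.33. FIGN, the gene of a microtubule-severing enzyme, followed with 48 and 11 reads (log2 ratio 2.43, interval 1.56 to 3.62). TRIM66, a chromatin-associated TRIM family gene, had 125 and 36 reads (2.42, interval 1.91 to 3.03), the largest counts of the 5 highest. ADARB2, an ADAR family gene without known editing activity, had 94 and 31 (2.17, interval 1.60 to 2.84). ARHGAP12, a GTPase-activating protein gene, had 57 and 17 (2.16, interval 1.42 to 3.09). The SMURF2 and ARHGAP12 peaks were called after lactate only, and those of the other 3 genes in both lists.

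At the other end TNKS, the tankyrase 1 gene, had 2 reads after lactate and 52 after ddH2O, with a log2 ratio of −3.90 (interval −7.54 to −2.53). PIK3R4, a regulatory subunit gene of a class III phosphoinositide kinase complex, had 3 and 49 reads (−3.37, interval −6.08 to −2.13). TMEM14B, a membrane protein gene, had 4 and 51 (−3.07, interval −5.30 to −1.92). All 3 had under 5 lactate reads. RSF1, a chromatin remodelling gene, had 4 and 49 (−3.02, interval −5.25 to −1.87). A far deeper intron window of RSF1, with 431 and 1027 reads, had a log2 ratio of −0.04. MAMDC2, which codes for a MAM domain protein, had 8 and 76 (−2.67, interval −4.09 to −1.77). The MAMDC2 peak was called in both lists and the other 4 after ddH2O only. These 10 windows were picked as the extremes of 3814 with at least 50 reads, so their ratios are a description, and none of the 10 windows reached a called exon or UTR peak.

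With overlapping windows counted more than once, the most reads in intron windows were in SYT1, with 2024 after lactate and 2800 after ddH2O over 127 windows. ZNF780B, a KRAB zinc finger gene, came close with 2256 and 2449 reads from only 4 merged peaks, and in non-overlapping windows it stood above SYT1, with 1854 and 1917 reads against 1429 and 2001. Its strongest window, chr19:40040713-40043403 by the merged peak, held 1465 and 1472 reads, with normalized densities of 1192 and 453 and folds over input of 26.0 and 37.8. The reads of SYT1 thus came from many windows, of which the fullest held 159, and those of ZNF780B from few. SLC35F3 had 1568 and 2373 reads. ZFAND3, an AN1 zinc finger gene with 88 merged peaks, had 1537 and 2025. PSMA1, a proteasome subunit gene with 37 merged peaks, had 962 and 2012, the widest gap of these 5. In non-overlapping windows, scaled by the library sums, the log2 ratio was 0.81 in ZNF780B, 0.42 in ZFAND3, 0.38 in SYT1, 0.26 in SLC35F3 and −0.06 in PSMA1. By the deposited densities the median log2 ratio over the windows of the gene was 0.82 in ZNF780B, −0.16 in ZFAND3, −0.22 in SYT1, −0.70 in SLC35F3 and −0.33 in PSMA1, so ZNF780B alone of the 5 was above 0 under both.

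Of the genes that the study followed up or perturbed, 5 of 8 had a merged intron peak, beside 41.2% of all RefSeq protein-coding genes. CDCP1, which codes for a transmembrane glycoprotein linked to tumour cell invasion, had 12, with 7 intron peaks after lactate and 11 after ddH2O, or 18.7 per 100 kb. Its fullest window held 219 reads after lactate and 199 after ddH2O (log2 ratio of densities 1.07, interval 0.78 to 1.35), and this window reached a called exon or UTR peak. The other 11 windows held 0 to 34 reads per library and lay on both sides of an equal density, and the median log2 ratio over the 12 windows was −0.15 by the deposited densities. By the library sums the reads of 9 non-overlapping windows, 312 and 309, gave a log2 ratio of 0.88, so the sign depended on the measure. In a window with 0 lactate and 9 ddH2O reads, which also reached an exon or UTR peak, the counting interval of the log2 ratio had its upper limit at −1.07 by the deposited densities and −0.12 by the library sums. FOSL1, the AP-1 transcription factor subunit FRA1, had 5 merged intron peaks in 8.50 kb. Of these, 2 were past 2-fold higher after lactate by the deposited densities, with 153 and 116 reads (log2 ratio 1.22, interval 0.86 to 1.58) and 128 and 108 reads (1.03, interval 0.65 to 1.42). Their intervals reach below a 2-fold ratio, and the 2 kb windows of neighbouring FOSL1 peaks share reads.

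ENO1, which codes for the glycolytic enzyme enolase 1, had 4 merged intron peaks with 2 called after lactate and 3 after ddH2O, and its fullest window held 20 and 56 reads (log2 ratio −0.95, interval −1.81 to −0.24) and reached a called exon or UTR peak. By the library sums this interval ran from −1.44 to 0.14, and the next ENO1 window, with 30 and 34 reads, had a log2 ratio of 0.30 by the deposited densities (interval −0.46 to 1.05). NSUN2 itself had 2, with 4 to 6 reads per library and window. LDHB, a lactate dehydrogenase subunit gene, had 1 peak in the ddH2O list, which lay outside the RefSeq span of the gene and had 0 and 3 reads. STC1, the gene of the secreted glycoprotein stanniocalcin 1, had no intron peak, and its 3 called peaks in both lists together were in other regions. LDHA, the other lactate dehydrogenase subunit gene, and STUB1, an E3 ubiquitin ligase gene, had no peak of any kind in either list.

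The authors' annotation gives some peaks to small RNA genes as a biotype of their own, and these are not among the intron peaks of protein-coding genes. The overlaps below are therefore what was left after that step, and they do not measure how often NSUN2 peaks lay on small RNA genes. RefSeq lists 3783 small RNA genes of at most 500 bases, 1926 of them within the span of a protein-coding gene. Intron peaks overlapped such a gene in 7 of 25152 cases after lactate (0.0278%, interval 0.0135% to 0.0574%) and in 10 of 48052 after ddH2O (0.0208%, interval 0.0113% to 0.0383%). All were on snoRNA or snRNA genes. Nearly all were predicted genes without a symbol of their own. The highest folds were at SNORA118 in MYO9B, a myosin gene (12.1, ddH2O only), and at a predicted snoRNA gene in PAFAH1B1, which codes for the dynein regulator LIS1 (5.60 after lactate and higher after ddH2O). How many such overlaps the placement of peaks would give by itself was not tested.

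Of 34 protein-coding snoRNA hosts, 7 (20.6%) had a merged intron peak and 21 an exon or UTR peak, against 8261 (41.2%) and 10488 of the 20050 RefSeq protein-coding genes. TNPO2, a nuclear import receptor gene, had 6, and the ribosomal protein genes RPL10, RPL27A and RPSA had 2 each, all outside the RefSeq span. Only 2 hosts had an intron peak on the span, and none of the hosts' intron peaks lay on a small RNA gene, with peaks given to small RNA genes left out as above. The hosts had a median span of 5.84 kb, against 24.1 kb for all RefSeq protein-coding genes.

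Of 18 genes of the splicing regulators (SR proteins, TRA2 factors and CLK kinases), 5 (27.8%) had a merged intron peak and 10 an exon or UTR peak, beside 41.2% of all RefSeq protein-coding genes with an intron peak. Their median span was 13.8 kb against 24.1 kb. SRSF4, an SR protein gene, had 3 merged intron peaks, 3 after lactate and 2 after ddH2O. TRA2A, a splicing activator gene, had 2 (1 and 2), and SRSF11, CLK2 and CLK4 had 1 each, called after ddH2O only.

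Nearly all of the very long genes had intron peaks. Of 18 such genes, with a median span of 1530 kb, 17 had a merged intron peak, 9 had 10 or more and the median was 11.5, while 8.94% of all RefSeq protein-coding genes had 10 or more and their median was 0. Beside MAGI2, the highest were EXOC4, an exocyst subunit gene, with 76 merged peaks and 8.96 per 100 kb, and MAGI1, another membrane scaffold gene, with 73 and 10.7. These 3 genes thus had many intron peaks and a number per length below the median of 11.9 per 100 kb.

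Genes of axon guidance and nerve growth factor receptors were included because the study is about perineural invasion, the growth of tumour cells along nerves. Of 32 such genes, 20 (62.5%) had a merged intron peak and 7 (21.9%) had 10 or more, with a median of 1 and a median span of 147.3 kb, beside 41.2%, 8.94%, a median of 0 and 24.1 kb for all RefSeq protein-coding genes. ROBO1, a receptor for SLIT ligands, had 42 over 1171 kb, or 3.59 per 100 kb, with 9 after lactate and 34 after ddH2O. NRP1, a co-receptor for class 3 semaphorins and VEGF, had 27, or 17.2 per 100 kb (9 and 20). EPHB2, an ephrin receptor gene, had 25, or 11.9 per 100 kb (6 and 21). Each of the 3 had fewer lactate than ddH2O peaks, in lists that differed 1.91 times in length. The lists of genes differ from all genes in span, and they were not compared with genes of like span.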

How the data were processed

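RIP was done with the EZ-Magna kit and an NSUN2 antibody, and libraries were sequenced as paired reads. Per the labels the kit for cDNA was SMART-Seq v4, which does not mark strand, so overlapping and antisense genes cannot be told apart (2.54% of lactate and 2.55% of ddH2O intron peaks lay on at least 2 protein-coding spans). The submitters' processing notes name fastp 0.20.1, HISAT2 2.1.0, MACS2 2.2.7.1, bedtools 2.29.2, HOMER 4.11.1 and DiffBind with GRCh38. The authors called peaks per library against its input and deposited for each peak a fold (a ratio), a score, a p-value and a q-value with −log10 values. The authors merged the lists with MAnorm and deposited a normalized signal (density) per IP library. The deposited log2 ratio, mean log2 density and P-value of that comparison were not used.

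Coordinates count from 1. Peaks were overlapped with bedtools 2.31.1 (at least 1 base). Reads per 2000-base window were computed back from the 2 densities, and 99.998% came out whole within 0.1. Ratios were called past 2-fold with at least 20 reads in both windows together, with Clopper-Pearson intervals, and shares carry Wilson intervals, at 95%. Gene spans came from RefSeq GRCh38.p14 and matched 96.1% of genes by symbol or identifier. Peaks per 100 kb count only those on the span. The computing back of reads and the 2-fold call by library sums were tested on simulated data. All steps were run in Python 3.11.15 with pandas 2.3.3.

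Named genes were the 12 with the most merged intron peaks, the 8 with the most per 100 kb among genes with at least 10, the 5 with the most reads, the 5 highest and 5 lowest ratios with at least 50 reads (1 per gene), the 8 genes of the study, and the 3 leading members of each of 4 lists. Members and lists were chosen with earlier results of these data known. Groups came from the sample labels, and the alternative settings that moved a value are given in the closing section.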

Additional observations from a re-analysis of the deposited data

How the results depend on the processing

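No paired analysis was possible because the conditions share no replicate numbers beyond 1 library of each kind, and no replicate could be left out. Of 41 values under alternative settings 2 changed sign and 30 moved, that is a share left its 95% counting interval, a count changed by over 1.5 times or a median log2 ratio by over 0.1. The other 9, among them largest overlap by bases, merged peaks without a peak of another region and windows without an exon or UTR peak (the last added after seeing the data), did not. The intron share of protein-coding peaks (61.5% lactate, 61.2% ddH2O) was 56.1% and 53.3% at a fold of at least 4, 48.4% and 50.2% at q below 0.05, 57.4% and 57.1% by bases, 34.9% and 28.7% in the best 1000 by fold (added after seeing the data), and 50.7% in the ddH2O list cut to the lactate size by score. Genes with 10 or more merged intron peaks were 598 at q below 0.05, 422 at a fold of at least 4 and 202 with intron peaks of both lists (added after seeing the data), all by construction from fewer peaks. Shared intron peaks were 27.6% and 14.4% with 50% overlap, 69.8% and 39.8% at q below 0.05, and 69.4% and 44.5% at a fold of at least 4.

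Intron windows past 2-fold higher (2048) and lower (2729) were 4308 and 1208 by library sums, 10875 and 23530 without a minimum of reads, 376 and 308 with at least 50 reads, and 302 and 712 past 4-fold. Of the windows past 2-fold, 42.9% were higher by the deposited densities and 78.1% by library sums. The median log2 ratio of −0.0353 turned to 0.448 by library sums and to 0.0944 with at least 50 reads, and was −0.473 without a minimum, below the 3′ UTR median of −0.345. The cause was not tested. Peaks on small RNA genes were 4 (lactate) where 50% of the gene was covered, and 2 and 6 at q below 0.05. With 10 reads in the median pair of intron windows, depth limits single peaks.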

Other observations

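Some genes carried intron peaks that lay outside their RefSeq span. In 36 genes at least 10 merged intron peaks fell off the span, 605 peaks in all, as the deposited gene names place them. CARD18, a CARD domain gene of 2.06 kb, had 79 of its 79 merged intron peaks off the span. ATP1B1, a sodium pump subunit gene, had 35 of 37, and ANKUB1 26 of 26. In TMEM14B, whose window was among the lowest ratios, 21 of 21 lay off the span. The transcript models behind the deposited annotation were not used here. Off-span peaks were left out of every count per 100 kb and kept in the counts of merged peaks per gene.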
